A study of Mus musculus with 8 samples.

Results

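The replication-dependent histone genes supply most of the histone that a dividing cell needs to package newly made DNA. They were taken here as the protein-coding genes of the GENCODE M21 mouse annotation whose symbols begin with Hist1h, Hist2h, Hist3h or Hist4h, after the transcripts of the deposited tables had been joined to that annotation by identifier. This gave 67 genes of 32780, all of them present in the tables: 6 H1, 18 H2a, 18 H2b, 12 H3 and 13 H4 genes. Cluster Hist1 on chromosome 13 holds 54 of them, Hist2 on chromosome 3 holds 10, Hist3 on chromosome 11 holds 2 and Hist4 on chromosome 6 holds 1. Their RNA was measured in TC1 cells, mouse embryonic stem cells of wild-type genotype, in 4 libraries of cells collected on day 10 of a differentiation protocol and 4 libraries of undifferentiated cells collected at day 0. Both groups carry the same wild-type genotype, and the labels give no agent or target cell type for the protocol. No label says whether libraries of one day came from separate cultures, so the p-values below measure the spread between these libraries, which may be technical.

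Core histones H2A, H2B, H3 and H4 form the octamer that DNA wraps around, and linker histone H1 binds where DNA enters and leaves it. Most cluster histone genes are transcribed mainly in S phase. Their mRNAs lack introns and normally end, without a poly(A) tail, just after a short stem-loop that stem-loop binding protein recognises and that later takes part in their decay. Embryonic stem cells spend a large part of their cycle in S phase. The libraries were made from total RNA after depletion of ribosomal RNA, and the labels name no poly(A) selection.

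The stem-loop is shown first because it is the sequence element that sets these transcripts apart. A perfect 6-base stem starting with GG around a 4-base loop starting with TT was searched for in the GENCODE M21 sequences of the members. It was found in 46 of 73 member transcripts, which belong to 44 members, and in 218 of 101040 other protein-coding transcripts (0.216%). There were 6 distinct forms, given 5′ to 3′ with the paired arms in capitals.
Form in 28 transcripts of H1, H2a, H2b and H3 genes: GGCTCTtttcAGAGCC
Form in 7 transcripts, all of H4 genes: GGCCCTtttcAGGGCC
Form in 6 transcripts of H1, H2b and H3 genes: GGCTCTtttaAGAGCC
Form in 2 transcripts, Hist1h4i and Hist2h4: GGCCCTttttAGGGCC
Form in 2 transcripts, Hist1h4b and Hist1h4j: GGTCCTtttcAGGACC
Form in 1 transcript, Hist2h2ac: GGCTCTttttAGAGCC
Of the 27 member transcripts without a match, 11 are annotated with their coding part only, so that no 3′ end was there to search. A missing match says nothing about the mRNA itself.

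The promoters are shown for an H1, an H2b and an H4 gene of cluster Hist1, for the H2a gene with the highest mean level in counts, and for Hist3h2a, the cluster Hist3 gene with the higher level. Promoter sequences of RefSeq, build GRCm38.p6, were matched to 61 of the 67 members. The 250 bases before the start are printed 5′ to 3′ on the gene's strand, with motif matches on either strand in capitals. The motifs searched were the TATA box as TATAAA, the CCAAT box as CCAAT, the octamer as ATTTGCAT and the box of H1 promoters as AAACACA.
Hist1h1d, chr13:23554782-23555031, plus strand: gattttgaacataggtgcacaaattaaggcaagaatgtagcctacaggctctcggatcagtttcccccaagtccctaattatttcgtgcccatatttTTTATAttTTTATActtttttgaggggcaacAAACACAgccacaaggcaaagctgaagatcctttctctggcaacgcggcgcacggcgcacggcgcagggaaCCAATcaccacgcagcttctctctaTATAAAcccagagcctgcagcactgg
Hist1h2bk, chr13:22035571-22035820, plus strand: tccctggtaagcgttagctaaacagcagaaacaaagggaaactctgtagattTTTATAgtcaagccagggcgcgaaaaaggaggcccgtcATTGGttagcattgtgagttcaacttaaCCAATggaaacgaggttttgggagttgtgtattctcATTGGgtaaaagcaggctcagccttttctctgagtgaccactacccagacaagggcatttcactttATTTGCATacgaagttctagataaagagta
Hist1h4i, chr13:22041363-22041612, minus strand: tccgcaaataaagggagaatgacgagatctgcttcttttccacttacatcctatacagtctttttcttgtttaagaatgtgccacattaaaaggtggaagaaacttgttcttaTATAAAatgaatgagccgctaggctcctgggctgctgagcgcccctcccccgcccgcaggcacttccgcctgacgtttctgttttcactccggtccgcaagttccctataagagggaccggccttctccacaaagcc
Hist2h2aa1, chr3:96245247-96245496, plus strand: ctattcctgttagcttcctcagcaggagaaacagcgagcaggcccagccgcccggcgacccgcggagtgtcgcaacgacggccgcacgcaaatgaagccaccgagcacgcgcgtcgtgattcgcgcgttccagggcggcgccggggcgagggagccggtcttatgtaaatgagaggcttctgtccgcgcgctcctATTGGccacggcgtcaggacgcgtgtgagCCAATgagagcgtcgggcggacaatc
Hist3h2a, chr11:58954435-58954684, plus strand: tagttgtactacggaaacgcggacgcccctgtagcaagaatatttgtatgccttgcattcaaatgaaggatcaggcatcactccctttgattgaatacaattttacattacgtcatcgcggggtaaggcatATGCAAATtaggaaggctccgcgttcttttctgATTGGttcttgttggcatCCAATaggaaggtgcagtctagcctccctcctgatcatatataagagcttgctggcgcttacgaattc
Over the full window of 300 bases, which adds 50 after the start, CCAAT stood in 52 of the 61 member promoters (85.2%), against 37.9% of all 27025 promoters. The 9 without it were all H4 promoters. TATAAA stood in 35 member promoters (57.4%), against 14.2% of all promoters. The octamer stood in 13, of which 7 were H2a and 6 were H2b promoters, against 1.75% of all promoters. AAACACA stood in 9 member promoters (14.8%), against 7.14% of all promoters. They were 5 of 6 H1, 2 of 17 H2a and 2 of 16 H2b promoters. The matches describe letters only, not sites. Matches of different motifs were counted separately, whether or not they overlapped. In 12 pairs of H2a and H2b genes the annotated starts lie 176 to 306 bases apart, so their windows can overlap. The same match can then be counted for both genes, and the member promoters are not all separate stretches of DNA.

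The libraries held 13525255 to 17843651 estimated counts on day 10 and 11242568 to 15808039 at day 0. Of 6 stem cell markers, 6 were lower on day 10, where 39.4% of all tested genes were, among them Pou5f1 at 2.72 ± 0.713 CPM (TMM-scaled counts per 1000000) against 738 ± 64.5 CPM at day 0 (SD, n = 4 each). The change of Klf4 was small, at -0.19 (adjusted p = 0.0224), and on TPM it turned to 0.24 (adjusted p = 0.0194). The stem cell markers summed to 164 to 216 CPM on day 10 and 1769 to 2079 CPM at day 0. Of 5 tested cardiac muscle markers 5 were higher, where 42.7% of all tested genes were. The cardiac markers, with the untested Nkx2-5, summed to 287 to 509 CPM on day 10 and 3.20 to 4.79 CPM at day 0. Endothelial markers were higher in 4 of 4 (395 to 483 against 40.3 to 44.2 CPM). Stromal markers were higher in 4 of 4 (4163 to 7295 against 117 to 132 CPM). Visceral endoderm markers were higher in 3 of 4 (218 to 536 against 4.11 to 7.20 CPM). The remaining one, Amn, did not pass (log2 change -0.62, adjusted p = 0.166). None of these markers was at 0 in a whole group, and their part in the histone values was not tested. Fewer cells in S phase and less histone RNA per cell cannot be told apart in such bulk libraries. One library stood apart. Day 0 library 2 had a median difference between transcript length and effective length of 231 bases, against 185 to 196 bases in the other day 0 libraries and 166 to 179 bases in the day 10 libraries. Effective length falls as fragments grow, so this library was read from longer fragments, and its part in the histone values was not tested. Results are therefore also given without it.

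The cluster histone genes were lower on day 10 as a group, in every class and in every library. Their summed level was 1809, 1551, 1421 and 1409 CPM in the 4 day 10 libraries, against 5100, 3934, 5636 and 5423 CPM in the 4 day 0 libraries. The highest day 10 sum stayed below the lowest day 0 sum, that of library 2. The day 10 mean of 1547 ± 186 CPM was 30.8% of the day 0 mean of 5023 ± 759 CPM (SD, n = 4 each), and 28.7% without day 0 library 2. No p-value is given for such sums, because the members were chosen together.

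H2a genes made up most of the sum, at 56.3 ± 1.40% of it on day 10 and 56.9 ± 1.35% at day 0. H4 genes were lowest relative to day 0, with a day 10 sum of 25.99% of the day 0 sum (87.7 ± 9.52 against 337 ± 71.2 CPM). H3 genes stood at 27.8% (130 ± 19.1 against 467 ± 83.6 CPM), H1 genes at 29.8% (260 ± 36.1 against 872 ± 78.4 CPM) and H2a genes at 30.5% (871 ± 108 against 2860 ± 467 CPM). H2b genes stood highest, at 40.8% (199 ± 25.02 against 487 ± 103 CPM). Their share of the histone sum was 12.4 to 13.3% in the day 10 libraries and 8.63 to 11.3% in the day 0 libraries, without overlap.

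**Figure D1:**
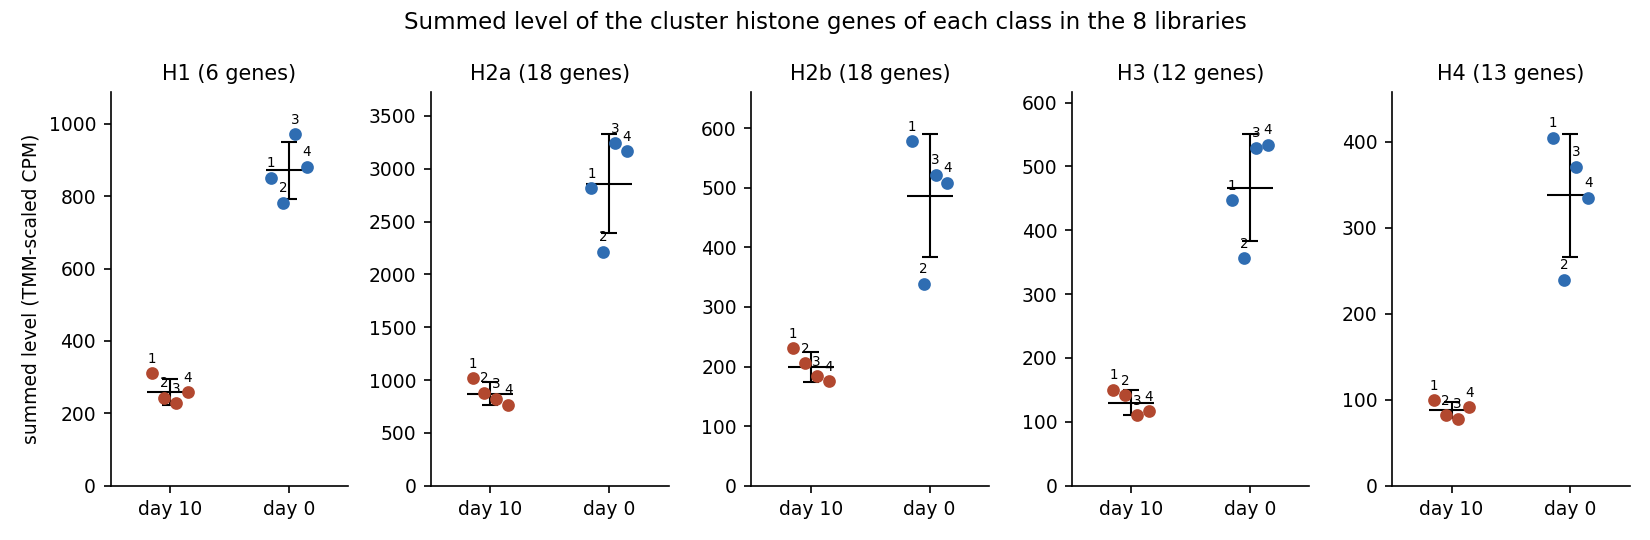
Summed level of the member genes of each class, in CPM scaled by TMM, with day 10 left of day 0; points are libraries with their number, and bars give the mean and SD. In all 5 classes the 4 day 10 libraries lie below the 4 day 0 libraries, among which library 2 is lowest.

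Per length, which is the scale on which genes can be compared, the summed TPM (transcripts per 1000000) was 8362 ± 1085 on day 10 and 22175 ± 2173 at day 0, or 37.7%. By class, the day 10 TPM sum was 40.7% of day 0 for H1, 36.2% for H2a, 50.8% for H2b, 37.1% for H3 and 27.2% for H4. H4 was again lowest and H2b highest, but H2a, H3 and H1 stood in another order than in CPM. H2a genes held 64.6% of the histone TPM on day 10 and 67.4% at day 0. Of single members, Hist1h2ai was at 1750 ± 202 TPM on day 10 and 5216 ± 734 TPM at day 0. The 5 members with the highest mean level held 53.6 ± 2.61% of the CPM sum on day 10 and 53.4 ± 1.51% at day 0.

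Gene by gene, 64 of the 67 members had enough counts for edgeR's quasi-likelihood test, with p-values adjusted by Benjamini-Hochberg over all 15097 tested genes. On day 10, 57 members were lower, 1 was higher and 6 did not pass. Of all tested genes 39.4% were lower and 42.7% higher. DESeq2 also called 57 lower and 1 higher, against 38.6% and 42.9% of all genes. Tested against a 2-fold change, 52 members were lower by more than that and 1 was higher, against 17.3% and 24.1% of all genes. The median log2 change of the members was -1.85, and that of all tested genes was 0.06. In 55 members all 4 day 10 libraries lay below all 4 day 0 libraries, as they did in 37.2% of all tested genes. By class, 6 of 6 H1, 15 of 17 H2a, 13 of 17 H2b, 11 of 12 H3 and 12 of 12 H4 members tested were lower. The class medians were -1.76, -2.28, -1.48, -1.91 and -1.85 in that order. The 3 untested members were Hist1h2ao with 0 counts on day 10 and 4 at day 0, Hist1h2bn with 26 and 78, and Hist1h4m with 0 and 79.

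**Figure D2:**
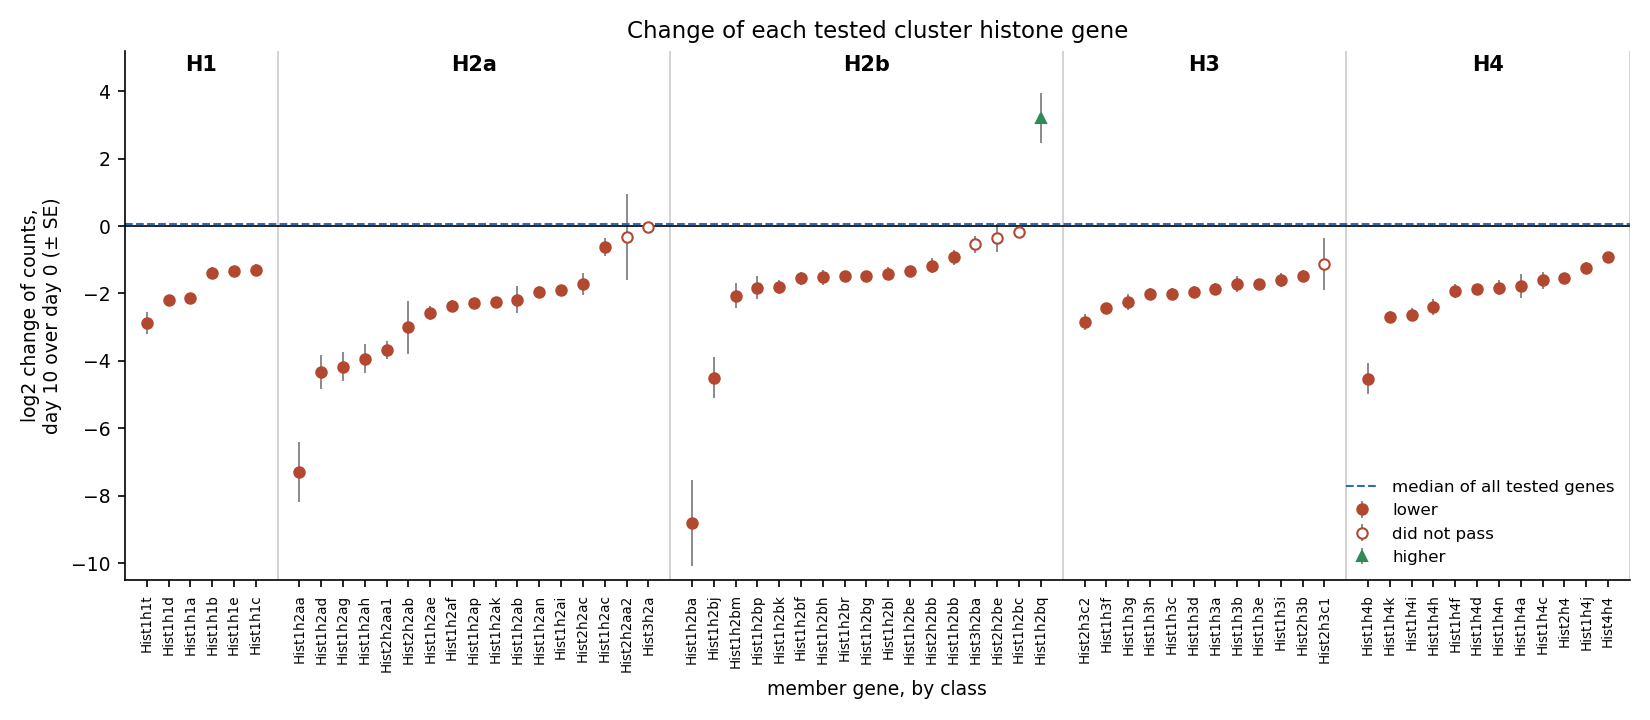
The log2 change of counts, day 10 over day 0, of the 64 tested members by class, with its standard error; filled circles were lower, open circles did not pass, and the triangle was higher. Most members lie between -1 and -3, and the dashed line marks the median of all tested genes at 0.06.

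Among linker histones, the somatic H1 genes fell by 1.31 to 2.18 on the log2 scale. Hist1h1d, which encodes a somatic H1, had 76.4, 64.5, 54.5 and 65.7 CPM on day 10, against 271, 285, 322 and 308 CPM at day 0. Its log2 change was -2.18 ± 0.09 (SE, adjusted p = 8.00e-11), and the groups were far apart. Hist1h1a, another somatic H1 gene, had 43.8, 43.0, 39.4 and 40.2 CPM on day 10, against 180, 167, 201 and 184 CPM at day 0. Its log2 change of -2.13 ± 0.07 (adjusted p = 5.26e-12) had the smallest SE of the 6 H1 genes, and its groups did not overlap. Hist1h1b had 75.4, 52.9, 54.4 and 55.5 CPM on day 10, with library 1 high, against 154, 112, 189 and 169 CPM at day 0 (log2 change -1.39 ± 0.17, adjusted p = 4.10e-05). Hist1h1t, the testis H1, was a trace in both groups, at 0.432 ± 0.151 CPM on day 10 and 3.28 ± 0.534 CPM at day 0 (log2 change -2.88 ± 0.32, adjusted p = 1.35e-06).

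The H2a class was led by a pair that the reads cannot separate. Every 31-base word of Hist2h2aa2 also occurs in Hist2h2aa1, and 89.6% of those of Hist2h2aa1 occur in Hist2h2aa2. Hist2h2aa1 was assigned 77.7, 67.6, 73.6 and 81.6 CPM on day 10, against 1313, 1060, 931 and 560 CPM at day 0. Hist2h2aa2 was assigned 503, 451, 408 and 305 CPM on day 10, against 268, 0, 737 and 1082 CPM at day 0. The day 0 libraries thus ran in opposite orders for the 2 genes, and Hist2h2aa2 was listed at 0 in library 2. Taken singly, Hist2h2aa1 had a log2 change of -3.68 ± 0.26 (adjusted p = 3.89e-06) and Hist2h2aa2 one of -0.33 ± 1.29 (adjusted p = 0.825). Summed, which was added after these values had been seen, the pair had 581, 518, 482 and 386 CPM on day 10, against 1581, 1060, 1668 and 1643 CPM at day 0. The groups of the sum did not overlap, and its log2 change was -1.60 ± 0.17 (adjusted p = 1.30e-05), or -1.74 ± 0.12 without day 0 library 2 (adjusted p = 2.83e-07). The pair held 27.4 to 33.9% of the histone CPM sum in day 10 libraries and 26.95 to 30.997% in day 0 libraries. Overlapping non-coding genes share its sequence as well. The most abundant of them, Gm20632, held 54.5 to 86.5 estimated counts in day 10 libraries and 41.9 to 92.6 in day 0 libraries.

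**Figure D3:**
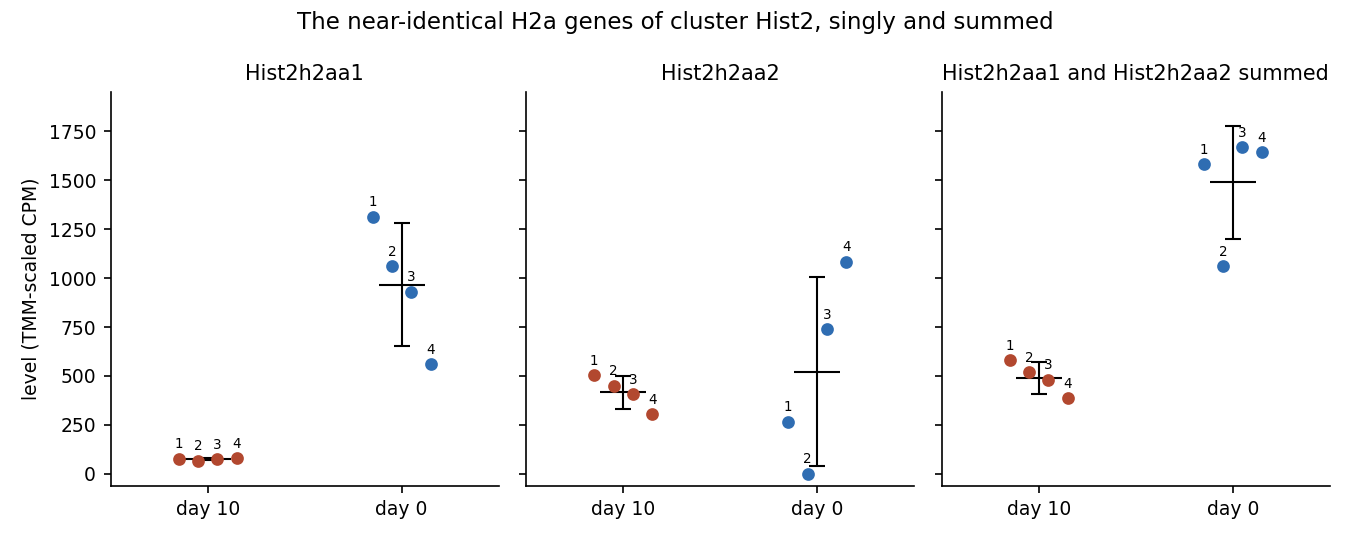
Level of Hist2h2aa1, of Hist2h2aa2 and of both summed, in CPM scaled by TMM, with day 10 left of day 0; points are libraries with their number, and bars give the mean and SD. At day 0 the split between the genes differs from library to library, while the sums of libraries 1, 3 and 4 lie between 1581 and 1668 CPM and library 2 lies at 1060 CPM.

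Hist1h2ai, the H2a gene of cluster Hist1 with the highest level, had 224, 185, 167 and 189 CPM on day 10, against 626, 572, 807 and 859 CPM at day 0. The log2 change was -1.91 ± 0.14 (adjusted p = 3.06e-07), although only 13.2% of its 31-base words are its own. Hist1h2aa, the testis H2a gene, had 0 counts in all day 10 libraries, against 2.21, 1.25, 1.35 and 0.786 CPM at day 0. Taking 3 counts over the 4 libraries as the floor, it was at least 27.3-fold lower (adjusted p = 1.43e-05). The remaining lower H2a members ran from Hist1h2ad at -4.33 ± 0.51 to Hist1h2ac at -0.63 ± 0.26 (adjusted p = 0.0404). Hist1h2ac did not pass without day 10 library 4 (adjusted p = 0.104), without day 0 library 3 (0.127), without day 0 library 4 (0.0592), with effective lengths (0.0680) or on TPM (0.448). Hist2h2ab was at -3.01 with all libraries and at -4.98 without day 10 library 1.

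The H2b class had the median nearest to 0 and the only member called higher. Hist2h2bb had 103, 87.9, 78.7 and 58.8 CPM on day 10, against 214, 128, 198 and 201 CPM at day 0 (log2 change -1.17 ± 0.21, adjusted p = 9.17e-04). All of its 31-base words also lie in Gm20628, an antisense gene, which held 34 to 43 estimated counts on day 10 and 69 to 149 at day 0. This holds for Hist2h3b too. Hist1h2bk had 27.0, 24.6, 22.2 and 19.8 CPM on day 10, against 110, 55.3, 88.9 and 74.2 CPM at day 0 (log2 change -1.81 ± 0.20, adjusted p = 1.67e-05). Hist1h2bl had 17.9, 15.6, 12.1 and 14.7 CPM on day 10, against 46.7, 24.8, 44.4 and 45.0 CPM at day 0 (log2 change -1.41 ± 0.20, adjusted p = 4.50e-05). In these 3 genes the day 0 value of library 2 was the lowest of its group and still above every day 10 value. Hist1h2ba, the testis H2b gene, had 0 counts in all day 10 libraries, against 8.85, 1.88, 1.94 and 3.40 CPM at day 0. It was at least 77.3-fold lower with the same floor (adjusted p = 4.08e-04).

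Of the H2b genes that did not pass, Hist1h2bc had 13.0, 10.2, 14.7 and 16.2 CPM on day 10, against 20.2, 13.8, 15.2 and 12.3 CPM at day 0 (log2 change -0.18 ± 0.17, adjusted p = 0.346). Hist2h2be, known in mouse olfactory neurons as a variant H2b gene, was at 1.09 ± 0.551 CPM on day 10 and 1.39 ± 0.579 CPM at day 0 (log2 change -0.36 ± 0.42, adjusted p = 0.438). Both sets of libraries overlapped.

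Hist1h2bq was the member called higher, at 3.68, 3.70, 2.63 and 0.897 CPM on day 10, against 0, 0, 0.674 and 0.458 CPM at day 0 (log2 change 3.20 ± 0.74, adjusted p = 0.00201). These are 162 counts in all on day 10 and 15 at day 0. Leaving out single libraries gave log2 changes of 2.75 to 3.92, the highest without day 0 library 3. Its protein-coding transcript of 1254 nt was listed at 0 in all 8 libraries, and all counts lay in a transcript of 2015 nt that the annotation types as a target of nonsense-mediated decay (log2 change 3.17 ± 1.04, adjusted p = 0.0339 over all transcripts). Of its 31-base words, 98.3% also occur in Hist1h2br, whose decay-type transcript of 2197 nt was at 2.02 ± 0.58 (adjusted p = 0.0187). The protein-coding transcript of Hist1h2br, of 1256 nt, was at -1.77 ± 0.22 (adjusted p = 2.27e-04). Relative to its gene, the decay-type transcript of Hist1h2br was higher on day 10 by 2.47 on the log2 scale in edgeR's diffSpliceDGE (adjusted p = 0.00118), a test that called 5.97% of all transcripts in either direction. With both genes summed the level was 14.5 ± 2.99 CPM on day 10 and 33.5 ± 5.25 CPM at day 0.

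Transcripts were also tested one by one with edgeR. Of 73 member transcripts 66 were tested, 56 were lower and the 2 decay-type transcripts were higher, against 23.8% and 26.8% of all 41067 tested transcripts. Leaving out any single library left 1 transcript higher, or 0 without day 0 library 2 and without day 0 library 4. Among transcripts of at most 700 nt 36 of 38 were lower (median -2.02), and among longer ones 20 of 28 (median -1.62). This split was not set against other transcripts of like length, and short genes as a whole were lower. Of other genes, 66.7% were lower at up to 500 nt and 69.1% at over 500 and up to 700 nt. The share was 50.4% at over 1000 and up to 2000 nt, and 34.9% at over 2000 and up to 4000 nt.

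Of the 12 H3 genes 11 were lower. Hist2h3b had 40.6, 39.6, 28.9 and 32.5 CPM on day 10, against 107, 67.6, 111 and 109 CPM at day 0 (log2 change -1.48 ± 0.17, adjusted p = 1.59e-05). Hist1h3e had 21, 21.8, 16.7 and 17.8 CPM on day 10, against 51.3, 51.5, 72.2 and 79.3 CPM at day 0 (log2 change -1.72 ± 0.16, adjusted p = 7.79e-07). Hist1h3b had 19.5, 16.2, 12.3 and 9.58 CPM on day 10, against 44.3, 34.9, 57 and 53.7 CPM at day 0 (log2 change -1.72 ± 0.23, adjusted p = 5.13e-05). No day 10 library reached the lowest day 0 library in any of the 3 genes. Hist2h3c2 was the H3 gene with the largest fall, at 5.96, 4.2, 3.07 and 2.30 CPM on day 10, against 31.3, 25, 31.2 and 23.0 CPM at day 0 (log2 change -2.84 ± 0.24, adjusted p = 3.86e-07). Hist2h3c1, of which no 31-base word is its own, did not pass (-1.12 ± 0.77, adjusted p = 0.204) and passed without day 10 library 3 (-2.14, adjusted p = 0.0144).

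All 12 tested H4 genes were lower. Hist1h4h had 15.5, 8.52, 10.4 and 12.6 CPM on day 10, against 81.8, 43.1, 67.5 and 57.1 CPM at day 0 (log2 change -2.41 ± 0.23, adjusted p = 5.54e-06). Hist1h4d, of which 85.3% of the 31-base words are its own, had 16.2, 12, 11.2 and 12.7 CPM on day 10, against 56.4, 35.2, 57.8 and 42.7 CPM at day 0 (log2 change -1.88 ± 0.17, adjusted p = 6.60e-07). Hist1h4b showed the largest fall of the class, at 0.736, 0.494, 0.146 and 1.06 CPM on day 10, against 24.3, 9.82, 14.7 and 10.3 CPM at day 0 (log2 change -4.52 ± 0.45, adjusted p = 3.32e-06). The day 10 counts of Hist1h4b were few, and 22.9% of its 31-base words are its own. Hist1h4m, with 0 counts on day 10, was at least 30.8-fold lower with the same floor, and its change was not tested in the main fit. Without the filter on low counts its log2 change in edgeR was -7.43 and did not pass (adjusted p = 0.164). Hist1h4m shares 91.7% of its 31-base words with Hist1h4n and was listed at 0 in day 0 libraries 1 and 2 as well.

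In cluster Hist1, 49 of 51 tested members were lower (median -1.93), where 39.4% of all tested genes were. Its summed level was 26.6% of day 0 (809 ± 102 against 3039 ± 397 CPM). In Hist2, 7 of 10 were lower (median -1.51) and the sum was 34.0% of day 0 (634 ± 105 against 1863 ± 360 CPM), or 31.04% without day 0 library 2. The Hist1 share of the histone sum was 49.3 to 57.3% in day 10 libraries and 58.1 to 64.0% in day 0 libraries. Hist4h4, alone on chromosome 6, had 18, 15.2, 15 and 13.4 CPM on day 10, against 33.0, 22.2, 28.5 and 33.6 CPM at day 0 (log2 change -0.93 ± 0.14, adjusted p = 2.34e-05). Its groups did not overlap, and its fall did not pass the test against 2-fold (adjusted p = 0.781).

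Neither tested gene of cluster Hist3 passed. Hist3h2a, an H2a gene, had 87.5, 93.8, 77.1 and 84.2 CPM on day 10, against 84.7, 67.8, 101.04 and 94.2 CPM at day 0, with full overlap (log2 change -0.02 ± 0.11, adjusted p = 0.867). On log2(TPM + 0.5), tested with limma, it was higher by 0.41 (adjusted p = 0.00591), where the median of all genes was itself 0.43. It did not pass in the other alternatives, TPM with other pseudocounts aside. Hist3h2ba, an H2b gene, had 3.90, 5.0, 2.85 and 3.14 CPM on day 10, against 3.96, 3.90, 6.74 and 7.13 CPM at day 0 (log2 change -0.55 ± 0.26, adjusted p = 0.0644). It passed as lower without day 10 library 2 (-0.73, adjusted p = 0.0143), without day 0 library 1 (-0.68, 0.0349), without day 0 library 2 (-0.69, 0.0288) and without the filter on low counts (-0.56, 0.0463). Its sign turned with the length trend removed (0.39, adjusted p = 0.163). Both genes together made up 5.05 to 6.37% of the histone CPM sum in day 10 libraries and 1.74 to 1.91% in day 0 libraries. Their day 10 sum was 96.7% of that at day 0 in CPM and 122.5% in TPM.

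Members were also counted by how much of their sequence is their own. Of 29 members with 10 to 50% of 31-base words of their own, 28 of 28 tested were lower, and of 26 members with at least 50% of their own, 22 of 26 were lower and 4 did not pass. Of 12 members with under 10% of their own, 7 of 10 tested were lower, 1 was higher and 2 did not pass. The shares of all tested genes were 39.4% lower and 42.7% higher. In an alternative added after seeing the data, 2 members were linked where they shared at least 50% of the words of the smaller one. Linked members were joined in chains and summed before the fit. Members of a group thus need not be near copies: Hist1h2be shares 10.5% of its words with its closest member. Of the 25 groups 22 were lower and 0 were higher. The 14 joined H2b genes of Hist1 were at -1.38 ± 0.15 (adjusted p = 1.05e-05), the 12 joined H2a genes at -2.14 ± 0.13 (1.84e-08), the 9 joined H3 genes at -1.92 ± 0.15 (8.18e-07) and the 7 joined H4 genes at -2.33 ± 0.19 (2.51e-06). The 3 groups that did not pass were the single genes Hist2h2be, Hist3h2a and Hist3h2ba.

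Most members are short, and short genes as a whole were lower on day 10. Other genes of at most 500 nt had a median log2 change of -1.14 (81 genes), against 0.21 for those over 2000 and up to 4000 nt (5836 genes). Of the 64 tested members, 59 lay below the median of the other genes of their length class. The 25 tested members of at most 500 nt had a median of -2.19 and 25 lay below the median of the other genes of that length. Members over 500 and up to 700 nt were at -1.77 (10 of 13 below, others -1.05), those up to 1000 nt at -1.93 (8 of 8, others -0.63) and those up to 2000 nt at -1.52 (10 of 11, others -0.31). The 6 members over 2000 and up to 4000 nt were at -0.49 (5 of 6 below), and 3 of them were called lower, against 34.9% of the other genes of that length. Among the other genes 66.7% were called lower at up to 500 nt and 69.1% at up to 700 nt. Hist1h1d, with 7425 nt the longest, was at -2.18 where the other genes over 6000 nt had a median of 0.93. Its length is that of the annotated transcript, which goes on for 4884 bases after the stem-loop. The length of its mRNA in these cells was not measured.

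**Figure D4:**
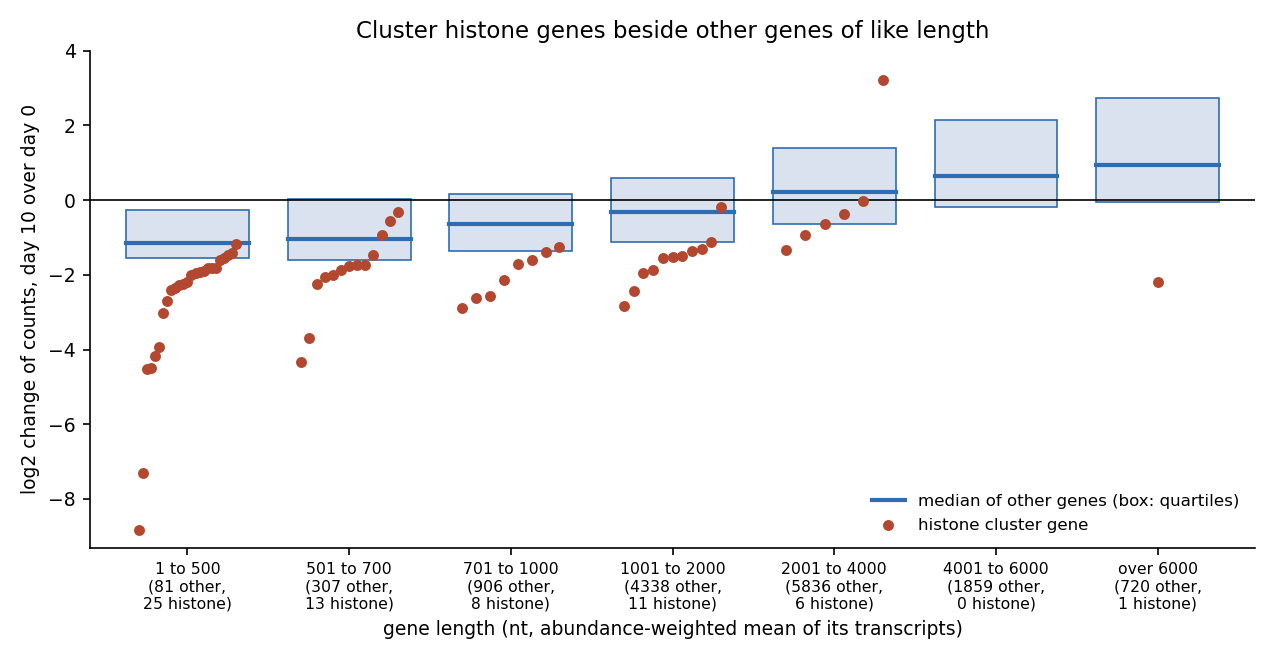
The log2 change of counts, day 10 over day 0, by gene length; boxes give the quartiles and lines the median of other tested genes, and points are the histone members. The other genes climb with length, from a median of -1.14 at the left to 0.93 at the right, and 59 of 64 members lie below the line of their length class.

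With the length trend over all tested genes removed in each library, 54 members were lower and 1 was higher, against 41.5% and 39.7% of all genes. Their median was then -1.06, and 22 were lower by more than 2-fold. With the trend estimated without the members, 54 were lower and 1 higher, against 41.6% and 39.5% of all genes, with a median of -1.12 and 26 lower by more than 2-fold. By class, the medians became -1.34 for H1, -1.15 for H2a, -0.56 for H2b, -1.03 for H3 and -1.22 for H4. The H2b genes Hist2h2bb (0.11, adjusted p = 0.524), Hist1h2bl (-0.12, 0.402) and Hist1h2bb (0.16, 0.406) no longer passed. On TPM tested with limma, 56 members were lower and 2 higher, against 27.1% and 52.1% of all genes. The median there was -1.50, which is -1.92 relative to that of all genes, against -1.90 for the counts.

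Members were then grouped by where their annotated transcript ends. Of members whose annotated transcript ends within 100 bases after the stem-loop, 19 of 20 tested were lower (median -1.97). Of those whose transcript goes on for over 300 bases 16 of 18 were lower (median -1.53). Of the 4 that go on for over 100 and up to 300 bases 3 were lower (median -2.02). Members annotated with the coding part only were lower in 10 of 10 (median -1.98), and members without a found stem-loop in 9 of 12, with 1 higher (median -1.64). For comparison, 39.4% of all tested genes were lower. Among other genes 66.7% were lower at up to 500 nt and 50.4% at over 1000 and up to 2000 nt. The groups of members differ in length too, with median lengths of 484 nt for the first and 1595 nt for the second. With the length trend removed the first had a median of -0.92 and the second of -1.31, so that their order turned. No test was made between these groups.

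**Figure D5:**
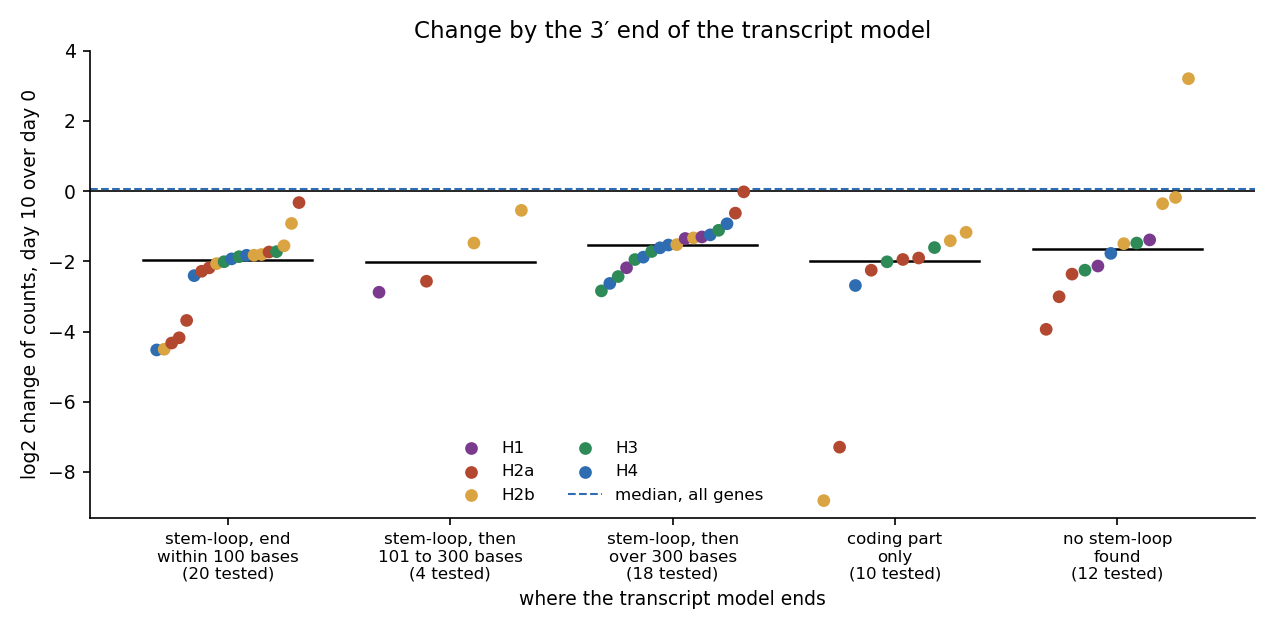
The log2 change of counts, day 10 over day 0, of tested members grouped by where their annotated transcript ends relative to the stem-loop; lines are group medians and colours are classes. The medians lie between -1.53 and -2.02 in all 5 groups, well under the dashed line for all genes at 0.06.

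H2a and H2b genes often share a promoter region, transcribed away from each other. In 12 such pairs the annotated starts lay 176 to 306 bases apart. Of the 10 pairs with both genes tested, 8 had both genes lower. In the other 2 pairs the H2a gene was lower and the H2b gene did not pass: Hist1h2ac with Hist1h2bc, and Hist2h2ac with Hist2h2be. Hist1h2bq, called higher, is paired with the untested Hist1h2ao, and Hist1h2ak, called lower, with the untested Hist1h2bn. Since 57 of all 64 tested members were lower, against 39.4% of all genes, the count of pairs says nothing about the shared region. Within a pair the changes could still differ, with a median absolute difference of 0.94 on the log2 scale. Hist1h2ag and Hist1h2bj were close, at -4.18 and -4.51, while Hist1h2bf and Hist1h2ad were far apart, at -1.56 and -4.33.

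Most genes that regulate, transcribe or process histone mRNA were lower as well. Of 21 such genes 16 were lower, none was higher and 5 did not pass (median -0.74), while 39.4% of all tested genes were lower and 42.7% higher. Their summed level was 1443 to 1537 CPM on day 10 and 2571 to 2685 CPM at day 0. The 5 that did not pass were Hinfp (-0.08, adjusted p = 0.349), Lsm10 (-0.16, 0.544), Lsm11 (0.13, 0.273), Sympk (0.04, 0.508) and Mblac1 (-0.65, 0.171). Ccne1, the cyclin that drives entry into S phase, was at 16 ± 1.46 CPM on day 10 and 151 ± 12.8 CPM at day 0 (SD, n = 4 each; log2 change -3.24 ± 0.09, adjusted p = 7.15e-13). Zfp473, a zinc finger protein of the machinery that cuts histone pre-mRNA, was at 4.59 ± 0.968 and 34.6 ± 1.55 CPM on those days (-2.90 ± 0.14, 1.45e-10). Slbp, which encodes the stem-loop binding protein, was at 78.6 ± 1.69 CPM on day 10 and 158 ± 5.88 CPM at day 0 (-1.01 ± 0.06, 9.52e-10). Npat, the coactivator at histone clusters, was at 114 ± 2.43 CPM on day 10 and 135 ± 11.9 CPM at day 0 (-0.24 ± 0.07, 0.00496), whose sign turned on TPM (0.15, adjusted p = 0.169) and which was at -1.03 with the length trend removed. Npat falls outside the naming rule and was chosen for its role after its values were known. On TPM 11 of the 21 genes were lower and 1 was higher, against 27.1% and 52.1% of all genes.

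Histone chaperones and deposition factors were lower in 19 of 24 and higher in 2 (median -0.55). Of all tested genes 39.4% were lower and 42.7% higher. On TPM the list had 10 lower and 6 higher, where 27.1% of all genes were lower and 52.1% higher. Hat1, which acetylates new H4, was at 51.3 ± 2.86 CPM on day 10 and 226 ± 8.12 CPM at day 0 (log2 change -2.14 ± 0.06, adjusted p = 1.34e-12). Nasp, a chaperone of H1 and H3-H4, was at 247 ± 15.6 and 920 ± 101.04 CPM on those days (-1.89 ± 0.08, 5.15e-11). Supt16, a subunit of the FACT complex, was at 460 ± 23.8 and 1222 ± 45.7 CPM (-1.41 ± 0.06, 5.02e-11). Ubn1, part of the HIRA complex that deposits H3.3 outside S phase, was higher, at 105 ± 3.97 CPM on day 10 and 48.0 ± 4.78 CPM at day 0 (1.13 ± 0.08, 5.98e-09). Hira and Cabin1, of the same complex, were lower (-0.56 ± 0.07, 5.03e-06, and -0.20 ± 0.07, 0.0193). On TPM neither passed (-0.06, adjusted p = 0.506, and 0.20, 0.247, by limma). Both fall outside the naming rule and were added after their values were seen. Rbbp7, a histone-binding subunit of several chromatin complexes, was higher by 0.35 ± 0.08 (0.00115).

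Of 11 variant histone genes outside the clusters 4 were lower, 3 were higher and 4 did not pass (median -0.17), while 39.4% of all tested genes were lower and 42.7% higher. H1f0, the replacement linker histone, was higher, at 96.2 ± 10.8 CPM on day 10 and 27.9 ± 3.04 CPM at day 0 (log2 change 1.79 ± 0.10, adjusted p = 6.94e-10). H2afy2, which encodes a macroH2A, was higher by 0.71 ± 0.10 (1.08e-05), and H3f3b, which encodes H3.3, by 0.48 ± 0.07 (1.32e-05). The lower ones were H2afx (-2.12 ± 0.11, 1.87e-09), H2afz (-1.69 ± 0.07, 5.56e-11), Cenpa, the centromeric H3 (-1.22 ± 0.08, 1.95e-09), and H2afj (-2.10 ± 0.23, 8.96e-07), which falls outside the naming rule and was added after its values were seen to complete the 4. The summed level of the 11 genes was 1577 to 1665 CPM on day 10 and 1797 to 2070 CPM at day 0. The cluster histone sum was 0.869 to 1.09 times that of the variant genes in day 10 libraries and 2.08 to 2.84 times in day 0 libraries. These sums are in counts, on which short genes as a whole were lower, and most cluster genes are short. With the length trend removed the median log2 change was -1.06 for the cluster genes and 0.24 for the variant genes. On TPM the medians were -1.50 and 0.17.

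DNA replication genes were lower on day 10 in 37 of 37 cases, with a median of -1.37, while 39.4% of all tested genes were lower. On TPM 35 were lower, against 27.1% of all genes, and Rrm1, a ribonucleotide reductase subunit, was higher (0.52, adjusted p = 7.05e-05 by limma). Their summed level was 2560 to 2691 CPM on day 10 and 5922 to 6431 CPM at day 0, and the day 10 mean was 41.9% of the day 0 mean. Mcm2, a subunit of the replicative helicase, was at 154 ± 5.78 CPM on day 10 and 478 ± 11.9 CPM at day 0 (log2 change -1.64 ± 0.06, adjusted p = 5.74e-12). Rfc5, of the clamp loader, was at -2.10 ± 0.08 (2.27e-11) and Mcm6 at -1.42 ± 0.06 (2.02e-11). The cluster histone sum was 0.549 to 0.702 times the replication sum in the day 10 libraries and 0.664 to 0.885 times in the day 0 libraries. Only day 0 library 2, at 0.664, lay within the day 10 range, and without it the ranges did not overlap. These sums are in counts, on which short genes as a whole were lower. The median log2 change was -1.85 for the cluster histone genes and -1.37 for the replication genes. With the length trend removed the medians were -1.06 and -1.37, so that their order turned, and on TPM they were -1.50 and -0.92. The share of cells in S phase was not measured on either day, and how the histone difference relates to it was not tested.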

How the data were processed

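Total RNA of 8 libraries, 4 per day, was sequenced, and a table of 126126 transcripts was deposited for each. Per the file headers, it holds estimated counts as the authors' tool gave them, and TPM based on the deposited effective lengths, which total 1000000 in a library. The submitters' processing notes name kallisto and DESeq2. For the transcript reference and build, nothing is given in the sources used here. Kallisto shares reads between near copies, and no source states the use of strand, so antisense and overlapping genes cannot be told apart. Identifiers without version matched GENCODE M21 for 117992 transcripts (93.6%), and the 8134 others held 1.15 to 1.23% of counts. Counts were summed per gene, rounded and tested in edgeR 4.0.16 (R 4.3.3; filterByExpr, TMM, robust quasi-likelihood F test, glmTreat against a log2 change of 1), two-sided, with Benjamini-Hochberg adjustment over 15097 genes and a threshold of 0.05. SE equals the size of the log2 change over the root of F. CPM values are TMM-scaled.

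Alternatives were RLE and upper-quartile scaling, DESeq2 1.42.0, no filter, removal of a lowess trend of log2 CPM on length (span 0.3), effective length as offset, limma 3.58.1 on log2(TPM + 0.5, 0.1 or 1), a replicate block and leaving out each library. Only the main edgeR fit was tested on simulated data, and the alternatives were not. It recovered 75.8% of 2-fold, 97.1% of 4-fold and 95.4% of 8-fold changes there, with 4 false calls among 15097 genes. In each class the 3 members with the highest mean CPM and the one with the largest fall are named, besides every member called higher and those of clusters Hist3 and Hist4, and up to 3 genes per direction of other lists. Other members and genes of the lists are named where a count or call turned on them or for their role, and were chosen after their values were seen. The members and lists were chosen with earlier results of these data known. Floors cover counting error only.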

Additional observations from a re-analysis of the deposited data

Results flagged for a closer look

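Among 68 groups of 4 libraries looked at for a single library far from its group, 5 were marked, where chance alone marks about 5%. In 4 of them the library was day 0 library 2, the one read from longer fragments, and it was low in each. Hist1h2bl was at 24.8 CPM there, against 44.4 to 46.7 CPM in the other day 0 libraries. Hist2h3b was at 67.6 CPM, against 107 to 111 CPM. The summed level of cluster Hist2 was 1324 CPM, against 2015 to 2075 CPM, and that of Hist2h2aa1 with Hist2h2aa2 was 1060 CPM, against 1581 to 1668 CPM. The last pair makes up most of the Hist2 sum, so these marks are not independent. All of these values lay above every day 10 library. In the remaining case Hist1h1b was at 75.4 CPM in day 10 library 1, against 52.9 to 55.5 CPM in the other day 10 libraries.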

How the results depend on the processing

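The count of members lower ran from 54 to 59 over 20 alternatives, and the leave-one-out range was 56 to 59. Members higher were 1 except on TPM, where there were 2 at each pseudocount. Over 2-fold lower, the count of 52 became 22 with the length trend removed, 26 with it estimated without the members, 24 with the block added and 33 on TPM. Over 2-fold higher it became 0 on log2(TPM + 1). The median of -1.85 became -1.06, -1.12 and -1.08 with those 3 length trends, and -1.50, -1.55 and -1.48 on TPM. The length trend and TPM change each gene's scale, and why single genes moved was not tested. Joining members linked by shared words gave 22 groups lower. On TPM the processing list had 1 gene higher, chaperones 10 lower and 6 higher, replication 1 higher, and variants 5 higher (5 also with each length trend). Summed TPM gave 37.7% for all members, 40.7% for H1, 36.2% for H2a, 50.8% for H2b, 37.1% for H3, 27.2% for H4, 31.5% for Hist1, 47.2% for Hist2, 122.5% for Hist3 and 70.6% for Hist4. Member transcripts higher were 1 without filter, 4 on TPM and 0 to 1 leaving out a library.

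Of members called lower, Hist2h2bb turned to 0.11 with the length trend removed and to 0.0899 with the block added, and Hist1h2bb turned to 0.16. Hist2h2aa2 was at 0.79, 0.67 and 1.55 with the length trends, 2.94, 3.52 and 2.69 on TPM, 0.49 with the block, and -0.76 to 0.30 leaving out a library. Hist3h2ba was at 0.39, 0.31 and 0.38 with the length trends. Hist3h2a was at 0.0001 with effective lengths, 0.41, 0.41 and 0.40 on TPM, and -0.14 to 0.0491 leaving out a library. With replicate number as a block, 57 members were lower and 1 higher. Same-numbered libraries correlated at 0.03 to 0.05, each best with its own number, and differently numbered ones at 0.0278 at most. These values are low, no label says what the numbers stand for, and whether they mark pairing was not tested.

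Depth limits the genes near 0 counts, for which only bounds are given.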
